A study of Mus musculus with 4 samples.

Results

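The ADAMTS proteases described here are 9 genes, Adamts1, Adamts2, Adamts4, Adamts5, Adamts7, Adamts9, Adamts10, Adamts12 and Adamts15, of 18193 genes that the annotation of the array names singly. Their probe sets were found by an exact match of the gene symbol. Of the 9 genes, 8 were represented, by 16 of the 45037 probe sets that are not controls, and Adamts2 was matched by none. RNA was measured on 4 Affymetrix whole-genome mouse arrays, on which a probe set is a group of short oligonucleotides read together as 1 signal. All tumors were mammary tumors of female C57BL/6 mice carrying PyV-mT, the polyoma virus middle T oncogene, taken when the animals were 110 days old, which was 14 days past onset. The compared groups were St6gal1-/- mice (null) and their wild-type littermates, with 2 arrays each. Each array held a pool of 3 tumors from 3 animals, so that spread between animals was averaged within a pool, and the promoter of the transgene was not named in the sources used. The arrays form 2 sets, each with 1 null and 1 wild-type pool, and ratios of null over wild type were formed within a set.

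ADAMTS proteases are secreted zinc metalloproteases that carry thrombospondin repeats, through which they bind the matrix outside the cell. They are made as inactive precursors, lose a propeptide to furin and related convertases, and cut matrix proteins within tissues. Adamts1, Adamts4, Adamts5, Adamts9 and Adamts15 cut the large proteoglycans aggrecan and versican. Adamts2 removes the amino-terminal propeptide of fibrillar procollagens, Adamts7 and Adamts12 cut cartilage oligomeric matrix protein, and Adamts10 binds fibrillin microfibrils. TIMP3 is their main tissue inhibitor, and the receptor LRP1 clears Adamts4 and Adamts5 from the matrix. In mouse mammary tumors, loss of Adamts1 is known to slow tumor growth. ST6GAL1, the enzyme that the null animals lack, caps the N-glycans of secreted and membrane proteins with alpha2-6-linked sialic acid.

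Median signals of the 4 arrays lay between 588 and 619. The 3'/5' signal ratio of Gapdh, a measure of RNA integrity and labelling, was nearly equal in the pools of set 1 (0.873 null, 0.869 wild type) and unequal in set 2 (2.13 null, 1.57 wild type). The same ratio of beta-actin lay closer together in the pools of set 2 (2.12 null, 1.96 wild type). In set 1 it was 1.53 (null) and 1.63 (wild type). The luminal keratin gene Krt8 read between 101210 and 150720 on the 4 arrays, as the labelled tissue would hold. For St6gal1, the brighter probe set read 2337 and 3642 in the null and 2330 and 2796 in the wild-type pools, with a limma adjusted p of 0.563. That probe set showed no loss, and whether it lies in the part deleted in the null allele was not stated in the sources used. The directions that follow therefore rest on the labels.

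The signal was first set against probe sets of Y-linked genes, which read only unspecific signal in female animals. The highest of 15 such probe sets on any array read 585, on a probe set of Uba1y. Of the 16 ADAMTS probe sets, 7 read above that level on all 4 arrays. These were 1 probe set each of Adamts1, Adamts9, Adamts10, Adamts12 and Adamts15 and 2 of Adamts5. Another 5 read above it on some arrays, and 4 on none. Adamts7 lay at the edge, with 1 of 4 arrays above. Without the Uba1y probe sets, an alternative chosen after seeing the data, the level was 565, and the same number, 7, read above it on all 4 arrays. The plot of signals by array shows how the probe sets of a gene can lie on either side of the level, so a signal is not compared between genes here.

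**Figure D1:**
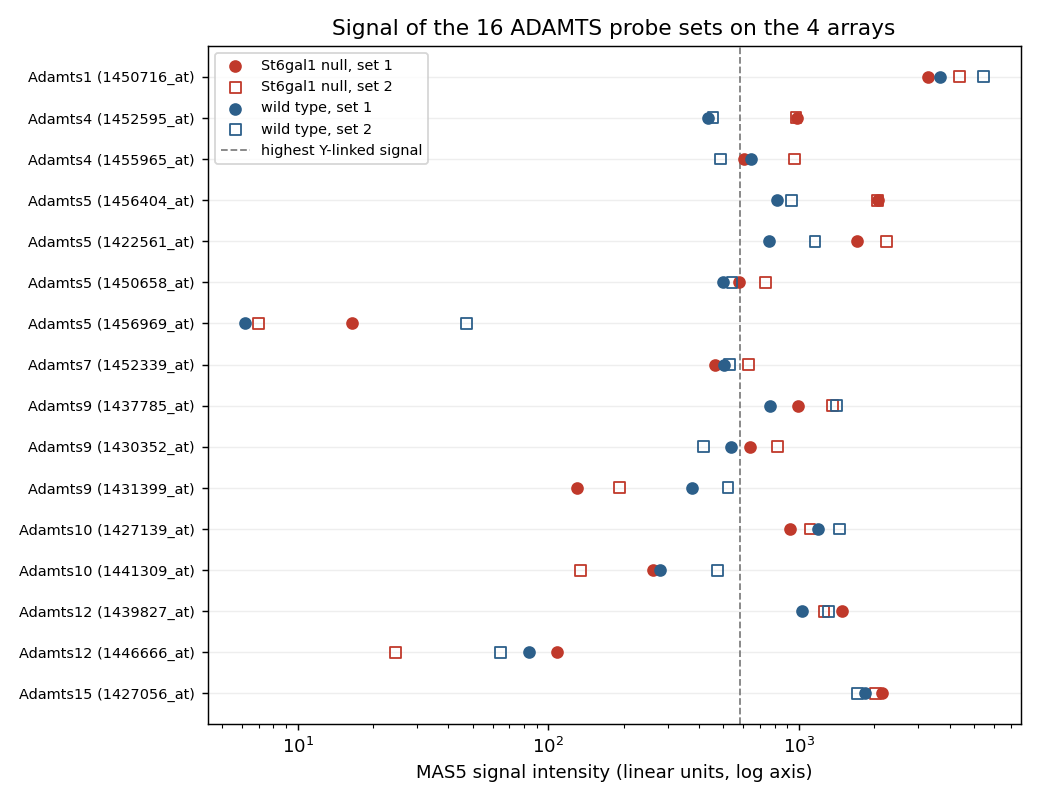
Signal of each of the 16 ADAMTS probe sets (rows) on the 4 arrays, in linear MAS5 units on a log axis, with null pools in red, wild-type pools in blue, set 1 as filled circles and set 2 as open squares. The dashed line is the highest Y-linked signal, 585. Both red points lie to the right of both blue ones for 3 probe sets of Adamts5 and 1 each of Adamts4, Adamts9 and Adamts15.

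Adamts5, the main aggrecan-cutting enzyme of mouse cartilage, rose in the null tumors on 2 of its 3 tested probe sets. Probe set 1456404_at read 2063 (null) and 820 (wild type) in set 1, and 2053 and 935 in set 2. Both null pools lay above both wild-type pools, and the wild-type pools read above the unspecific level too. The null signal was 2.28-fold the wild-type signal (95% confidence interval 1.64 to 3.19), a log2 ratio of 1.19 ± 0.22 (SE; 2 pools of each genotype; limma adjusted p = 0.00377). Probe set 1422561_at read 1708 and 759 in set 1 and 2242 and 1160 in set 2. Its groups did not overlap either, and its fold was 2.04 (1.46 to 2.84, limma adjusted p = 0.0104). In rank by log2 ratio these probe sets stood at positions 173 and 283 from the top of 22519 tested. Folds are on the scale of log2(signal + 44), which understates the change of dim probe sets.

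The other probe sets of Adamts5 did not show that rise. Probe set 1450658_at is annotated to the same transcript fragment as 1422561_at, yet read 575 and 500 in set 1 and 738 and 541 in set 2. It lay below the unspecific level on 3 arrays and above it in the null pool of set 2. Its log2 ratio was 0.30 ± 0.34 (limma adjusted p = 0.682), with a fold between 0.748 and 2.03 by the 95% interval. Probe set 1456969_at read at most 47.3 on any array and was too dim to be tested. The probe sets that carried the rise were therefore those read above the unspecific level on all 4 arrays.

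The 2 calls of Adamts5 rest on the set term and on the intensity trend of the fit. Without the set term the limma adjusted p was 0.292 and 0.631, and without the trend 0.130 and 0.134. With 1 array left out and no set term, the fit called neither probe set, while the log2 ratios stayed between 0.73 and 1.32.

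Adamts4, a second aggrecan-cutting enzyme, which inflammatory cytokines are known to induce, did not pass the test. Probe set 1452595_at read 984 (null) and 433 (wild type) in set 1, and 974 and 455 in set 2. Both null pools lay above the unspecific level and both wild-type pools below it. The mean null signal was 1.63-fold the level of 585, a value without an allowance for error. This probe set entered the test only through its null pools, so that excess is tied to its selection. The log2 ratio was 1.07 ± 0.32, a fold of 2.10 (1.31 to 3.35), with a limma adjusted p of 0.0555. This was just over the threshold of 0.05, and a pseudocount of 200 took it to 0.0464. Under the other alternatives with the set term and the trend, the adjusted p reached 0.204.

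The second probe set of Adamts4, 1455965_at, behaved differently in the 2 sets. It read 605 (null) and 643 (wild type) in set 1, and 962 and 488 in set 2. The null pool was thus the lower one in set 1 and the higher one in set 2, and the groups overlapped. Its log2 ratio was 0.42 ± 0.34 (limma adjusted p = 0.552).

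Adamts1, which cuts versican and is induced by progesterone in the ovary, is the gene next to Adamts5 on chromosome 16, with 0 protein-coding genes between them in the RefSeq table of GRCm38.p6. The same chromosome carries St6gal1, with 300 protein-coding genes between it and Adamts1. The only probe set of Adamts1 read 3265 (null) and 3673 (wild type) in set 1, and 4374 and 5459 in set 2. The null pool was the lower one in each set, but the difference between the sets was larger than that between genotypes, and the groups overlapped. The log2 ratio was -0.24 ± 0.13, a fold of 0.845 (0.702 to 1.02), with a limma adjusted p of 0.301. Its interval and those of the 2 called Adamts5 probe sets do not meet, although the difference between the genes was not itself tested.

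Adamts15, another versican-cutting enzyme, read 2147 (null) and 1830 (wild type) in set 1, and 2030 and 1713 in set 2. Both null pools lay above both wild-type pools, by nearly the same small ratio in each set. The log2 ratio of 0.23 ± 0.18 had a limma adjusted p of 0.536 and a fold interval from 0.894 to 1.54.

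Adamts9, which cuts versican and acts with Adamts20 in development, had 3 probe sets that did not move together. The brightest, 1437785_at, read 993 (null) and 765 (wild type) in set 1, and 1366 and 1412 in set 2, with a log2 ratio of 0.16 ± 0.25 (limma adjusted p = 0.795). The sets went opposite ways. The second, 1430352_at, read 641 and 535 in set 1 and 821 and 416 in set 2. There the null pools lay above and the wild-type pools below the unspecific level, and the log2 ratio was 0.58 ± 0.35 (limma adjusted p = 0.390). The dimmest, 1431399_at, stayed below the level on all 4 arrays.

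Of the enzymes that cut cartilage oligomeric matrix protein, Adamts12 read 1482 (null) and 1031 (wild type) in set 1, and 1260 and 1311 in set 2. The null pool was higher in set 1 only, and the log2 ratio was 0.22 ± 0.24 (limma adjusted p = 0.669). Its other probe set read at most 108. Adamts7 read 465 and 501 in set 1 and 627 and 529 in set 2, mostly within the unspecific level, and was below the filter for testing. These signals cannot show whether Adamts7 differed.

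Adamts10, the fibrillin-binding member, read 924 (null) and 1190 (wild type) in set 1, and 1108 and 1456 in set 2. Both null pools lay below both wild-type pools, by ratios of 0.776 and 0.761 in the sets. The log2 ratio was -0.37 ± 0.24, a fold of 0.776 (0.542 to 1.11), and the limma adjusted p was 0.442. Its second probe set read at most 475 and was not tested.

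**Figure D2:**
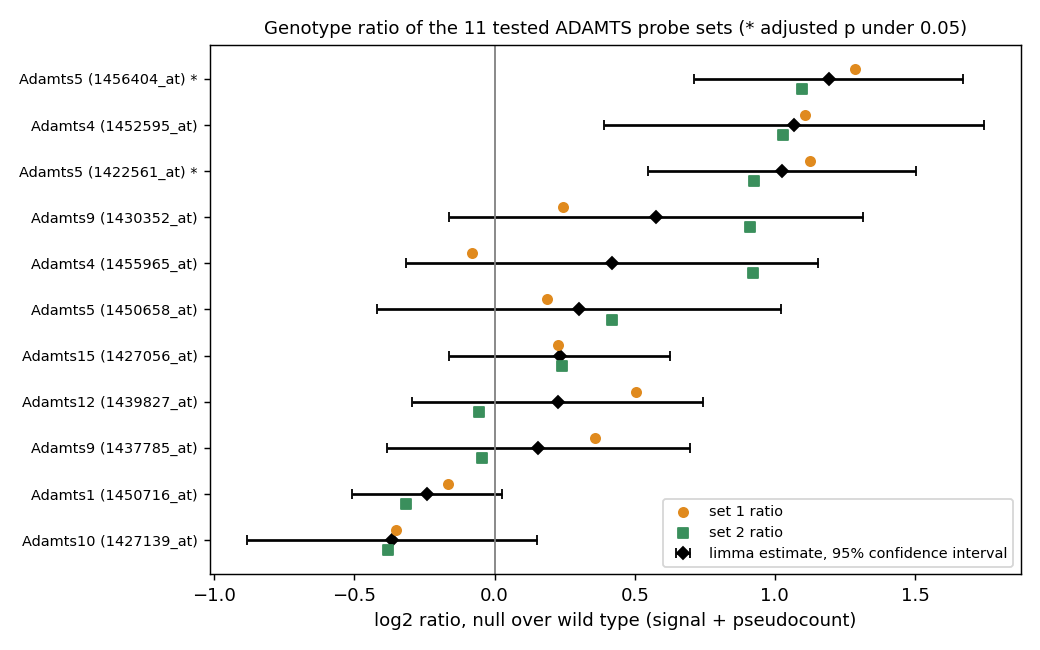
Log2 ratio of null over wild type for the 11 tested ADAMTS probe sets: diamonds are limma estimates with 95% confidence intervals, orange circles the ratio in set 1 and green squares the ratio in set 2. The starred Adamts5 probe sets, at 1.19 and 1.03, passed the threshold, while the interval of Adamts4 1452595_at also lies above 0 without passing.

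Across the family, 11 probe sets of 7 genes were bright enough to be tested. Limma called 2 of them higher in the null pools, both of Adamts5, where 4.09% of all 22519 probe sets tested were called higher. It called 0 lower, where 3.27% of all were called lower. At an unadjusted p under 0.05, 3 were higher and 0 lower. The groups did not overlap for 7 of the 11, against 32.0% of all probe sets tested, and the direction was the same in both sets for 8 of the 11, against 63.2%. Of those 8, 6 were higher and 2 lower in the null pools. The median log2 ratio was 0.30, against -0.03 over all probe sets tested. Probe sets of 1 gene are not independent, and the 11 include 3 of Adamts5. Adamts4 1452595_at, Adamts5 1450658_at and Adamts9 1430352_at entered the test only through their null pools, and each counts as higher without overlap. The median is the value of Adamts5 1450658_at itself. Left out as too dim were Adamts9 1431399_at and Adamts10 1441309_at, both lower in the null pools in both sets. The counts and the median therefore give no direction for the family as a whole.

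**Figure D3:**
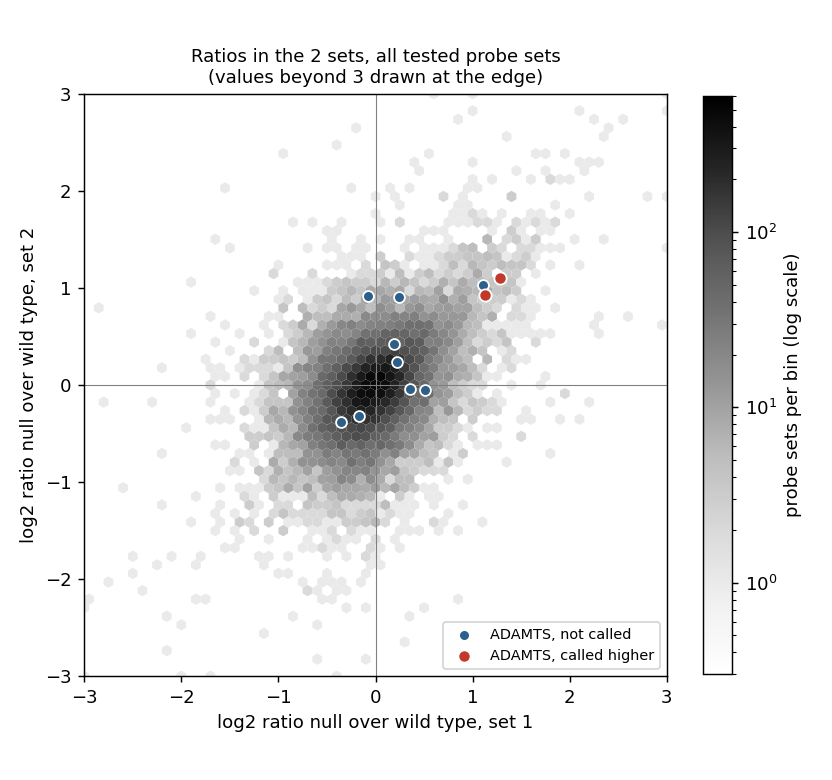
Log2 ratio of null over wild type in set 1 (x axis) and in set 2 (y axis) for all 22519 tested probe sets, with grey bins shaded by number on a log scale and the ADAMTS probe sets as points. The 2 called Adamts5 probe sets (red) and the brighter Adamts4 probe set lie together near 1 on both axes, while the other 8 lie closer to 0 on at least 1 axis.

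The sets differed more widely than the genotypes over the whole array, with 23.5% of probe sets called between set 2 and set 1. Of the 11 ADAMTS probe sets, 10 were higher in set 2 and 1 passed. This was Adamts1, which was 1.41-fold higher in set 2 (log2 0.49 ± 0.13, limma adjusted p = 0.0109). The first probe set of Adamts9, 1437785_at, followed with 1.56-fold (limma adjusted p = 0.0792), and Adamts5 1456404_at had 1.06-fold (adjusted p = 0.819). The Gapdh ratio also differed between the sets, and its part in the rise of Adamts1 was not tested.

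The genes whose signals over the 4 arrays were most like those of Adamts5 1456404_at were Prol1, Car3, Slc4a4, Ndn and S1pr3. Likeness was the root-mean-square distance between log2 values, each probe set centred on its own mean. The distances ran from 0.0203 for Prol1 to 0.0609 for S1pr3. Car3 encodes a carbonic anhydrase abundant in fat and muscle, Slc4a4 a bicarbonate transporter, Ndn the imprinted growth regulator necdin, and S1pr3 a receptor for sphingosine 1-phosphate. Their folds were 2.23 for Prol1, 2.34 for Car3, 2.16 for Slc4a4, 2.43 for Ndn and 2.34 for S1pr3. Folds near that of Adamts5 follow from the way these genes were picked. Among the rest of the 9 ADAMTS genes described here the nearest was Adamts4 1452595_at, at a distance of 0.0738, with 9 tested probe sets nearer. With 4 arrays, likeness describes a profile of 4 values and no more.

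Of the other ADAMTS genes, 10 were listed, 7 had a probe set and 3 were tested, of which limma called 0 (1 at an unadjusted p under 0.05). Of all genes tested, 5.19% were called higher and 3.58% lower. Adamts16 read 1428 (null) and 798 (wild type) in set 1, and 932 and 559 in set 2. Its log2 ratio was 0.75 ± 0.28 with a limma adjusted p of 0.128, and its wild-type pool of set 2 lay below the unspecific level. Adamts3, a procollagen-processing relative of Adamts2, and Adamts8 had log2 ratios of 0.02 and -0.39. The 9 untested probe sets of this list read at or below 585 on every array.

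The ADAMTS-like genes, which share the thrombospondin repeats but have no protease domain, included genes that fell. Of 7 listed genes 6 were tested, of which 0 rose by limma (0 also at an unadjusted p under 0.05) and 2 fell, with a median log2 ratio of -0.42. The median over 11512 genes tested, 1 probe set each, was -0.01, and 5.19% of them rose and 3.58% fell. Adamtsl1 fell by 1.12 on the log2 scale (limma adjusted p = 0.0251), from 1626 to 920 in set 1 and from 1200 to 414 in set 2. The null pool of set 2 lay below the unspecific level there. The second tested probe set of Adamtsl1 had a ratio of -0.52 and did not pass. Papln, which encodes papilin, an inhibitor of procollagen-processing ADAMTS enzymes, fell by 0.62 (adjusted p = 0.0388), from 3004 to 1783 and from 2727 to 1912. Adamtsl3 had the largest ratio that did not pass, 0.68 ± 0.35 (adjusted p = 0.294), with both null pools (661 and 872) above both wild-type pools (532 and 390). Both wild-type pools lay below the unspecific level, so Adamtsl3 entered the test only through its null pools. Thsd4 and Adamtsl4 had ratios of -0.41 and -0.29 that did not pass.

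Among the inhibitors, Timp3, whose protein blocks Adamts4 and Adamts5, fell by 0.53 (limma adjusted p = 8.54e-04). It read 17822 (null) and 25477 (wild type) in set 1, and 16454 and 24018 in set 2. All 4 tested probe sets of Timp3 were lower in the null pools, and 2 passed. Timp2 fell by 0.53 as well on its brightest probe set, where the groups overlapped and the sets differed more than the genotypes. All 5 tested probe sets of Timp2 were lower in the null pools, and 4 passed. Only on probe set 1454677_at did the groups not overlap, at 15781 and 14594 (null) and 20458 and 23575 (wild type). Its log2 ratio was -0.53 (limma adjusted p = 0.00217). Timp1, a weak inhibitor of ADAMTS enzymes, rose 2.52-fold. Lrp1, the clearance receptor, had a log2 ratio of 0.30 (adjusted p = 0.111). Over this list of 7 genes, 6 were tested, 1 rose and 2 fell, with a median of -0.00. The shares over all genes tested were 5.19% rising and 3.58% falling.

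Of the genes that activate the proteases or help their secretion, 7 of 8 were tested, of which 1 rose and 0 fell, with a median of -0.06. Over all genes tested, 5.19% rose and 3.58% fell, so the count of 1 is not read as a result about this list. The gene that rose was Fbln1, encoding fibulin-1, a cofactor of Adamts1, at 1.90-fold (limma adjusted p = 0.0420), on 1 of 2 tested probe sets. Furin, the main activating convertase, read 6663 and 6750 in set 1 and 9231 and 9888 in set 2, a log2 ratio of -0.06 that did not pass. The convertase genes Pcsk5 and Pcsk6 had ratios of 0.36 and 0.42 that did not pass. Pofut2 and B3glct, which add the O-linked sugars that thrombospondin repeats need for secretion, had ratios of -0.14 and -0.10.

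Of 5 procollagen genes 4 were tested and all 4 rose, with a median log2 ratio of 1.28, from 1.69-fold for Col5a1 to 3.57-fold for Col1a1, whose second probe set rose as well, with a log2 ratio of 0.48. Of 10 glycoprotein genes 9 were tested, of which 5 rose and 0 fell, with a median of 0.78. Tfpi2, a serine protease inhibitor cut by Adamts1, rose 2.21-fold, and Thbs2 rose 1.74-fold, whereas Thbs1 had a ratio of -0.01 and Comp, the substrate of Adamts7 and Adamts12, 0.59 (adjusted p = 0.302). Of 8 proteoglycan genes 6 were tested, of which 2 rose and 2 fell. For these 3 lists too, the shares over all genes tested were 5.19% rising and 3.58% falling. Bgn, biglycan, and Dcn, decorin, rose 1.58-fold and 1.31-fold, while Fmod, fibromodulin, and Sdc4, a syndecan that takes part in Adamts5 activation, fell by 0.75 each. For Sdc4 the groups overlapped, and the difference between the sets was larger than that between genotypes. The second probe set of Sdc4 had a ratio of -0.05, from -0.63 in set 1 and 0.52 in set 2. Vcan, versican, which most of the tested proteases cut, read 3130 (null) and 2630 (wild type) in set 1, and 4560 and 4153 in set 2. Its log2 ratio was 0.19 ± 0.13 and did not pass (adjusted p = 0.476), and its 3 tested probe sets ranged from 0.19 to 0.62 with 0 called.

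**Figure D4:**
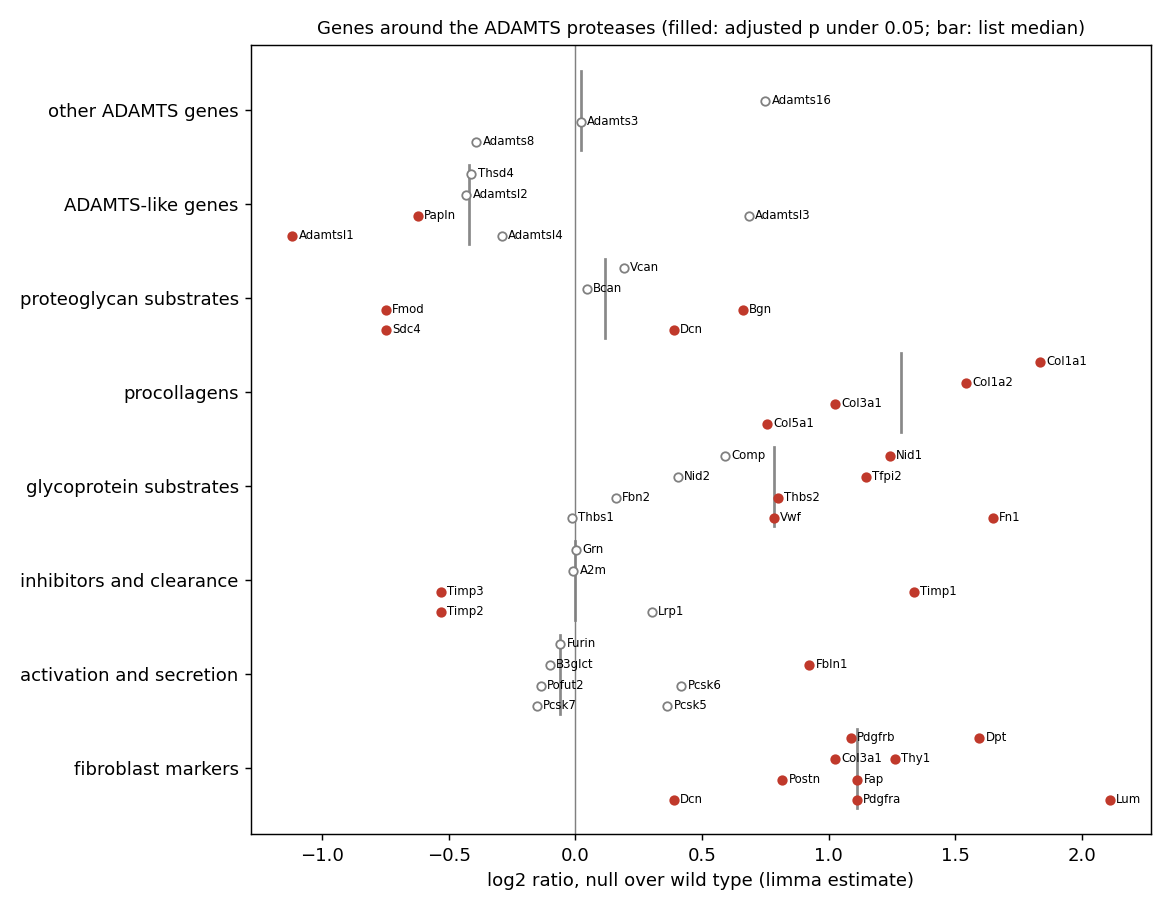
Limma log2 ratio of null over wild type for genes around the ADAMTS proteases, 1 probe set per gene, by list; filled points passed an adjusted p of 0.05 and grey bars mark list medians. The procollagens and fibroblast markers lie to the right, with medians of 1.28 and 1.11, and the ADAMTS-like genes mostly to the left, with a median of -0.42.

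Markers of other cell types were read beside Adamts5, and most fibroblast and adipocyte markers rose. In bulk tumor RNA, a change in the number of cells of a type and a change in RNA per cell cannot be told apart. Dcn and Col3a1 stand in both the fibroblast and the substrate lists, and Vwf in both the endothelial and the substrate lists. All 9 fibroblast markers rose, with log2 ratios from 0.39 for Dcn to 2.11 for Lum and a median of 1.11. Their summed signal was 296524 and 328277 in the null and 160044 and 173076 in the wild-type pools. In set 1 the median of these markers was 1.10, beside 1.29 and 1.13 for the called Adamts5 probe sets, and in set 2 it was 1.12, beside 1.10 and 0.93. Of 5 adipocyte markers tested 4 rose (summed signal 53436 to 60610 in the null, 21745 to 24686 in the wild-type pools), and of 6 endothelial markers 2 rose (11224 to 11522 against 7176 to 7707). Of 5 skeletal muscle markers 2 rose (7770 to 9538 against 5429 to 5804). Of 5 macrophage markers 1 rose and 1 fell (76930 to 96259 against 84488 to 97435). Of 6 pericyte and smooth muscle markers 1 rose and 2 fell (128906 to 142008 against 143009 to 149562). Of 7 luminal markers 1 rose (492296 to 501412 against 438857 to 477840). The brighter probe set of Elf5, a luminal transcription factor gene, did not pass (log2 ratio -0.12). Its second probe set, 1419556_at, fell by 1.96 (limma adjusted p = 2.1e-07), from 10608 to 3159 in set 1 and from 8989 to 1940.3 in set 2. Of 4 basal markers 1 fell (17490 to 20617 against 24341 to 25798). Over all genes tested, 5.19% rose and 3.58% fell. A single call within a list is therefore not read as a result about its cell type. None of the tested markers of these lists lay at or below the unspecific level on all 4 arrays. The filter for testing made that outcome likely beforehand, so it is no support for the markers. Ckm, among the 2 skeletal muscle markers that rose, read 1083 and 1157 in the null and 220 and 478 in the wild-type pools. Both wild-type pools lay below the unspecific level, so Ckm entered the test only through its null pools. The part of these cell types in the rise of Adamts5 was not tested.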

How the data were processed

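The deposited values were linear signal intensities, 1 per probe set and array, made with MAS5 per the submitters' processing notes. Its version and the genome build are not given in the sources used here. The trimmed mean (2% off either end) was 2500.01 on every array, so the intensities were used as deposited. The 64 control probe sets were left out. Columns were mapped by sample name, and 0 stayed unmapped. Intensities were taken to log2(value + 44), 44 being the 10th percentile, and those with a mean log2 of at least 9.24, the median, entered the test (22519 probe sets). limma 3.58.1 in R 4.3.3 was fitted to the whole table (lmFit, eBayes with intensity trend, terms set and genotype), with p-values adjusted by Benjamini-Hochberg over that whole table and a threshold of 0.05. The fit has 1 residual and 13.5 prior degrees of freedom. The pairing comes from the design text, and pools of a set shared their deviations from the group means (r = 0.612). An exact permutation test over 4 arrays could not pass the threshold and was not used. The p-values, standard errors (SE) and confidence intervals therefore rest mostly on a variance shared by probe sets of like intensity. They do not measure the spread between the pools of a single probe set. The precision of every value is limited by the number of arrays.

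Gene lists used the brightest tested probe set of each gene and are described by counts and medians. All member probe sets are accounted for. From the lists, genes past the threshold and up to 4 others per list with the largest ratios of 1 direction in both sets could be named. Adamts3, B3glct, Pofut2, Thbs1 and the second probe set of Elf5 were named outside that rule, after their values were seen. Members and lists were chosen with earlier results of these data known. Alternatives were quantile and cyclic loess normalization, pseudocounts of 16 and 200, no filter and a filter at the 75th percentile, no set term, no trend, each array left out, and each set alone.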

Additional observations from a re-analysis of the deposited data

How the results depend on the processing

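Of the ADAMTS probe sets called higher, the number stayed within 1.5 times of 2 under quantile and cyclic loess normalization, both pseudocounts and no filter. It was 0 at the 75th percentile filter, where only Adamts1 was bright enough to be tested, 0 with no replicate block (the set term left out), 0 without the intensity trend, and from 0 to 0 with 1 array left out and no set term. Over the whole array these last fits called 0 probe sets without the set term (1261 at an unadjusted p under 0.05), 0 without the trend (3512 by unadjusted p), and 2 to 25 higher when an array was left out. With an array left out, the lone pool of a genotype was assumed to vary like the other group. This turned 3 uncalled ratios. Adamts9 1437785_at ranged from -0.27 (without the wild-type pool of set 1) to 0.58, with -0.07 without the null pool of set 2, and Adamts1 ranged from -0.53 to 0.041 (without the wild-type pool of set 2). Over all refits for single ADAMTS probe sets, 103 values kept direction and side of the threshold, 12 lost the call, 1 gained it (Adamts4) and 3 reversed. Within single sets, 19 values had the sign of both sets together and 3 the opposite sign, Adamts4 1455965_at in set 1 (-0.081) and Adamts9 1437785_at (-0.047) and Adamts12 1439827_at (-0.055) in set 2. In set 1 and set 2 alone, the list medians were 0.032 and 0.029 for activation and secretion, 0.79 and 0.64 for skeletal muscle, and -0.31 and -0.32 for basal markers. In set 1 alone they were -0.17 for pericytes and smooth muscle and -0.051 for luminal markers, and in set 2 alone 1.55 for adipocytes. The causes were not tested.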

Other observations

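The dim probe sets of the family held a few wide ratios that could not be told from unspecific signal. Adamts9 1431399_at read 130 (null) and 375 (wild type) in set 1, and 193 and 521 in set 2, lower in the null pools in both sets, while both other Adamts9 probe sets had positive ratios. Without the filter its log2 ratio was -1.26 ± 0.65 with a limma adjusted p of 0.432. Adamts18, a protease of the mammary basement membrane niche, read 226 (null) and 41.3 (wild type) in set 1, and 406 and 44.9 in set 2, on its brightest probe set. Both probe sets were singled out after their values were seen. All of these signals lay below the Y-linked level of 585.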
